A study of Bos indicus and Bos indicus x Bos taurus and Bos taurus with 6 samples.

Results

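The glucocorticoid receptor gene NR3C1 and 5 genes that the receptor is known to induce in leukocytes, FKBP5, TSC22D3, PER1, SGK1 and ZBTB16, were followed in the whole blood of cows from 3 breeds. They were taken by symbol from the deposited count matrix, where all 6 were found among 21698 genes, and all 6 passed the filter on low counts that left 13455 genes for testing. RNA sequencing covered Kedah-Kelantan, an indigenous Bos indicus breed labelled heat-tolerant, Brangus, a composite breed labelled intermediate, and Holstein Friesian, a Bos taurus breed labelled heat-vulnerable. Each breed had 2 biological replicates, called replicate 1 and replicate 2 below, so n = 2 for every mean and standard deviation (SD). All animals were adult females, neither pregnant nor lactating, aged 4.5 ± 1.2 years and weighing 450 ± 15 kg, and were bled from the jugular vein under heat stress. Every sample carries the same temperature-humidity index of 44.68. No animals outside heat stress are among these samples, so the comparisons are between breeds under 1 heat load and say nothing of a response to heat. The design text counts 4 animals for each breed against 2 libraries here, and no source used here says which animals were sequenced or pooled. The p-values measure the spread between these libraries. Neither cortisol values nor the time of blood collection were among the data used here.

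Cortisol, the glucocorticoid of cattle, is released by the adrenal cortex under stress and with the time of day. Inside a leukocyte it binds NR3C1, which is held ready by HSP90 chaperones and then moves to the nucleus, where it raises the transcription of some genes and lowers that of many inflammatory ones. FKBP5, TSC22D3, PER1, SGK1 and ZBTB16 are among the genes it raises. Glucocorticoids are also known to change the numbers of circulating neutrophils, lymphocytes and eosinophils, so in whole blood a gene's level depends on the mix of cells as well as on each cell. In these bulk samples, fewer cells of a type and less RNA per cell cannot be told apart.

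Total counts were between 25275377 and 28668857 per library. The Holstein Friesian libraries stood apart from each other. Of the 13455 genes, 32.6% differed over 2-fold between the Holstein Friesian replicates, against 13.9% for Brangus and 3.49% for Kedah-Kelantan. The labelled tissue is whole blood, and markers of white blood cells were present. All 10 T cell, 10 B and plasma cell and 10 monocyte markers had counts in every library. Of 10 neutrophil markers only LTF had none, in both Brangus libraries. Red cell markers were sparse: 5 to 8 of 10 erythroid markers had counts in a library, and haemoglobin genes held 0.010% to 0.059% of counts. Because the Holstein Friesian libraries stood apart, results that rest on that breed are given with and without each of its libraries. Levels are given in CPM, read counts over the TMM-adjusted library size, and comparisons of level between genes use the deposited FPKM, which is per gene length.

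None of the 6 genes passed edgeR's quasi-likelihood test in any of the 3 comparisons between breeds. A gene passed at a Benjamini-Hochberg adjusted p under 0.05 over all genes tested. In Kedah-Kelantan against Holstein Friesian 0 of 6 passed, where 0.00743% of all genes did. In Brangus against Holstein Friesian 0 of 6 passed, again beside 0.00743% of all genes. In Kedah-Kelantan against Brangus 0 of 6 passed, beside 0% of all genes. For any difference among the 3 breeds 0 of 6 passed, beside 0% of all genes. None of the 6 had an unadjusted p under 0.05 either, and DESeq2 also called 0 of them. Over all genes, edgeR had 543, 1025 and 1564 genes at an unadjusted p under 0.05 in the 3 comparisons in this order and 1107 for any difference, and DESeq2 called 108, 282 and 532 genes and 527.

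NR3C1 encodes the receptor itself, a nuclear receptor present in nearly all nucleated cells. It lies on chromosome 7 from 54344785 to 54491820 on the minus strand, in the coordinates of the deposited table. Its level was 161 and 144 CPM in Kedah-Kelantan, 173 and 138 CPM in Brangus, and 141 and 185 CPM in Holstein Friesian, replicate 1 first. The ranges of the 3 breeds overlapped, and the means were 153 ± 12.2, 156 ± 24.3 and 163 ± 30.5 CPM (SD). Kedah-Kelantan against Holstein Friesian gave a log2 fold change of -0.09 (SE 0.22, adjusted p = 0.995), Brangus against Holstein Friesian -0.07 (SE 0.22, adjusted p = 0.934) and Kedah-Kelantan against Brangus -0.03 (SE 0.22, adjusted p = 0.97). The 95% intervals of the fold between breeds were 0.642 to 1.37, 0.655 to 1.39 and 0.672 to 1.43 in the same order. Thus the receptor transcript differed between breed means by less than its spread within a breed, and a difference within these intervals could not be told from none. NR3C1 had the steadiest level of the 6, with a biological coefficient of variation of 0.243, below that of most genes (25.2nd percentile).

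**Figure D1:**
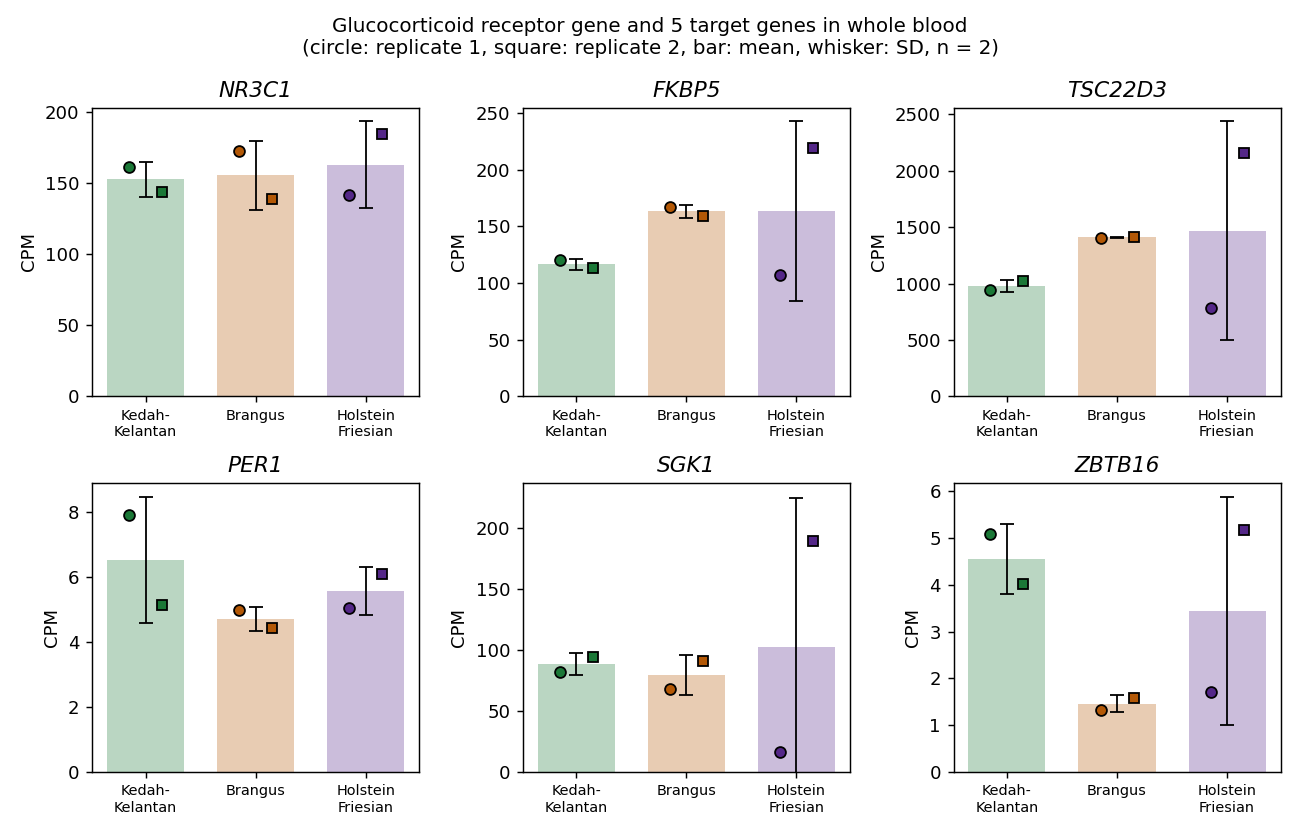
Level of NR3C1 and 5 target genes in each library in CPM, by breed. Bars are means and whiskers SD (n = 2), and the SGK1 whisker of Holstein Friesian is clipped at 0. Holstein Friesian replicate 2 lies above replicate 1 in all 6 panels, by 11.5 times for SGK1, while the Kedah-Kelantan and Brangus replicates lie closer together.

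FKBP5 encodes a cochaperone that binds HSP90 in the receptor complex and lowers the receptor's affinity for hormone, so its induction is a short feedback loop. The gene lies on chromosome 23 from 9555619 to 9677831 on the minus strand. It was at 120 and 113 CPM in Kedah-Kelantan, 167 and 159 CPM in Brangus, and 107 and 220 CPM in Holstein Friesian. Both Kedah-Kelantan libraries were below both Brangus libraries, and the Holstein Friesian libraries lay on either side of all the others. The means were 117 ± 4.84, 163 ± 5.86 and 163 ± 79.5 CPM (SD). For Kedah-Kelantan against Brangus the log2 fold change was -0.48 (SE 0.35, adjusted p = 0.625), with a 95% interval from -1.35 to 0.39. Against Holstein Friesian it was -0.48 (SE 0.35, adjusted p = 0.995) for Kedah-Kelantan and -0.00 (SE 0.35, adjusted p = 1) for Brangus.

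TSC22D3 encodes GILZ, the glucocorticoid-induced leucine zipper protein, which binds NF-kappaB and AP-1 and dampens inflammatory transcription. It lies on chromosome X from 56329795 to 56396372 on the minus strand. By FPKM it was by far the most abundant of the 6, at 309 and 327 FPKM in Kedah-Kelantan, 382 and 380 FPKM in Brangus, and 239 and 593 FPKM in Holstein Friesian. That placed it between the 98.7th and 99.3rd percentile of all genes. Scaled by library only, it was at 943 and 1020 CPM in Kedah-Kelantan, 1406 and 1413 CPM in Brangus, and 781 and 2155 CPM in Holstein Friesian. As for FKBP5, the Brangus libraries were both above the Kedah-Kelantan libraries and the Holstein Friesian pair enclosed the other breeds. The Brangus replicates differed little, with a ratio of 1.00.

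The mean TSC22D3 level was 981 ± 54.3, 1410 ± 4.59 and 1468 ± 971 CPM (SD) in Kedah-Kelantan, Brangus and Holstein Friesian. Kedah-Kelantan against Brangus gave a log2 fold change of -0.52 (SE 0.47, adjusted p = 0.698). Against Holstein Friesian, Kedah-Kelantan was at -0.58 (SE 0.47, adjusted p = 0.995) and Brangus at -0.06 (SE 0.47, adjusted p = 0.974). FKBP5 and TSC22D3 were the nearest pair among the 6, by a distance that is not scaled by how much a gene varies. The root mean square difference of their log2 CPM over the 6 libraries, each gene centred on its mean, was 0.14, against 1.03 for PER1 and SGK1, the pair farthest apart. The FPKM ratio of TSC22D3 to FKBP5 ranged only from 39.6 to 53.4 over the libraries. The FPKM ratio of FKBP5 to NR3C1 was 0.313 and 0.331 in the Kedah-Kelantan libraries, 0.407 and 0.483 in the Brangus libraries, and 0.319 in replicate 1 and 0.50 in replicate 2 of Holstein Friesian. Relative to the receptor transcript, FKBP5 was thus lower in both Kedah-Kelantan libraries than in both Brangus libraries as well.

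PER1 encodes a repressor of the circadian clock whose promoter responds rapidly to glucocorticoids. It lies on chromosome 19 from 27778459 to 27793616 on the minus strand. PER1 was low, at 7.88 and 5.13 CPM in Kedah-Kelantan, 4.97 and 4.43 CPM in Brangus, and 5.03 and 6.08 CPM in Holstein Friesian, from 103 to 245 counts. Brangus had the lowest levels, below every library of the other breeds, while Kedah-Kelantan and Holstein Friesian overlapped. The gap from Brangus replicate 1 at 4.97 CPM to Holstein Friesian replicate 1 at 5.03 CPM was within counting error. The means were 6.51 ± 1.94, 4.70 ± 0.383 and 5.56 ± 0.742 CPM (SD). Kedah-Kelantan against Brangus gave a log2 fold change of 0.47 (SE 0.38, adjusted p = 0.669), which did not pass. Against Holstein Friesian, Kedah-Kelantan was at 0.23 (SE 0.38, adjusted p = 0.995), or -0.11 without Kedah-Kelantan replicate 1, and Brangus at -0.24 (SE 0.38, adjusted p = 0.851).

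SGK1 encodes a serum- and glucocorticoid-regulated kinase that acts on ion channels and cell survival, and it was the gene of the 6 that differed most between the Holstein Friesian libraries. It lies on chromosome 9 from 72305985 to 72418617 on the minus strand. The level was 82.1 and 94.5 CPM in Kedah-Kelantan, 67.7 and 90.9 CPM in Brangus, and 16.4 and 189 CPM in Holstein Friesian. The Kedah-Kelantan and Brangus libraries overlapped, and the Holstein Friesian libraries were the lowest and the highest of all 6. The means, 88.3 ± 8.80, 79.3 ± 16.4 and 103 ± 122 CPM (SD), do not show this split. The biological coefficient of variation of SGK1 was 0.677, higher than that of most genes (85.2nd percentile).

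The SGK1 test was correspondingly wide. Against Holstein Friesian, Kedah-Kelantan was at a log2 fold change of -0.22 (SE 1.01, adjusted p = 0.996) and Brangus at -0.37 (SE 1.01, adjusted p = 0.92). Kedah-Kelantan against Brangus gave 0.16 (SE 1.01, adjusted p = 0.967), and its 95% interval reached from -2.42 to 2.73, so a fold of several times in either direction was not detectable.

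ZBTB16 encodes the zinc finger repressor PLZF, which is needed for innate-like T and NKT lymphocytes and is strongly induced by glucocorticoids in many cell types. It lies on chromosome 15 from 24581873 to 24786657 on the plus strand. The level was low, at 5.08 and 4.03 CPM in Kedah-Kelantan, 1.33 and 1.59 CPM in Brangus, and 1.71 and 5.17 CPM in Holstein Friesian. These values rested on 158 and 124, 31 and 37, and 51 and 136 counts. Both Brangus libraries lay below every other library, and Holstein Friesian had 1 library near each of the other breeds. The gap from Brangus replicate 2 at 1.59 CPM to Holstein Friesian replicate 1 at 1.71 CPM was within counting error. The means were 4.56 ± 0.746, 1.46 ± 0.185 and 3.44 ± 2.45 CPM (SD). ZBTB16 had the largest breed difference of the 6. It was 3.12 times as high in Kedah-Kelantan as in Brangus, a log2 fold change of 1.64 (SE 0.66, unadjusted p = 0.0508, adjusted p = 0.429), with a 95% interval from -0.01 to 3.29. Brangus against Holstein Friesian gave -1.23 (SE 0.65, adjusted p = 0.666), or -0.27 without Holstein Friesian replicate 2, and Kedah-Kelantan against Holstein Friesian gave 0.41 (SE 0.63, adjusted p = 0.995).

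**Figure D2:**
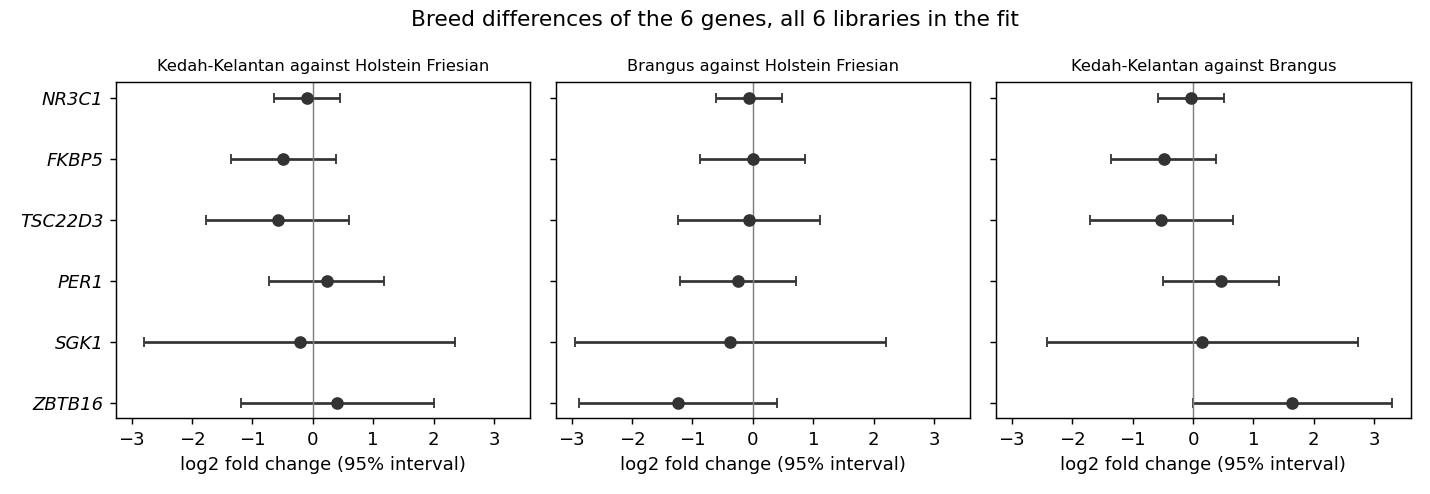
Log2 fold changes of the 6 genes in the 3 comparisons between breeds with their 95% intervals, from 1 fit over all 6 libraries. Every interval includes 0, the narrowest being those of NR3C1 and the widest those of SGK1, and ZBTB16 in Kedah-Kelantan against Brangus lies farthest from 0 at 1.64.

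By mean CPM the order of breeds differed between genes, and few neighbouring breeds in these orders were apart. For NR3C1, FKBP5 and TSC22D3 the order was Holstein Friesian, Brangus, Kedah-Kelantan. For SGK1 it was Holstein Friesian, Kedah-Kelantan, Brangus, and for PER1 and ZBTB16 it was Kedah-Kelantan, Holstein Friesian, Brangus. In Kedah-Kelantan against Brangus, FKBP5 and TSC22D3 were lower in both Kedah-Kelantan libraries, as were 30.7% of all genes, and PER1 and ZBTB16 were higher in both, as were 33.5% of all genes. In Brangus against Holstein Friesian, PER1 and ZBTB16 were lower without overlap, beside 15.9% of all genes, and no member was higher without overlap, beside 18.4%. For PER1 and ZBTB16 the gap there between the nearest libraries was within counting error. No member was separated in Kedah-Kelantan against Holstein Friesian, where 18.1% of all genes were higher and 12.6% lower without overlap.

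Kedah-Kelantan and Brangus, whose replicates were close, were also compared in a fit without the Holstein Friesian libraries. In it, FKBP5 and TSC22D3 were lower and ZBTB16 higher in Kedah-Kelantan, 3 of 6 members, where 19.3% of all genes passed (9.09% higher, 10.2% lower). The log2 fold change of TSC22D3 was -0.52 (SE 0.10, adjusted p = 0.0118, from 0.0118 to 1 over the 16 alternatives). FKBP5 was at -0.48 (SE 0.11, adjusted p = 0.0216, from 0.0197 to 1) and ZBTB16 at 1.65 (SE 0.43, adjusted p = 0.0345, from 0.0283 to 1). NR3C1 (-0.02), PER1 (0.48) and SGK1 (0.16) did not pass there. The 3 genes also passed when only Holstein Friesian replicate 1 was left out, where 17.4% of all genes passed, or only replicate 2, where 17.5% did. They did not pass in any of the 13 alternatives that kept both Holstein Friesian libraries. The fold changes were nearly the same in these fits and only their errors were smaller, since with all libraries in the fit the spread of the Holstein Friesian pair enters the error of every comparison.

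The size of these differences depended on the scaling. Scaled by total counts only, the median of all genes moved to 0.29 in Kedah-Kelantan against Brangus, and FKBP5 was then at -0.22, TSC22D3 at -0.26 and ZBTB16 at 1.90. Relative to that median they were at -0.51, -0.55 and 1.62. The direction for these 3 genes was the same under all 16 alternatives. NR3C1, at -0.03, turned to 0.23 with total counts, which is -0.05 relative to the median.

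Blood cell markers differed between the same libraries. Markers of eosinophils, basophils and mast cells summed to 261 to 270 CPM in Kedah-Kelantan and 36.5 to 38.7 CPM in Brangus, over 6 of 10 marker genes found in the table. HDC had no count in 5 of the 6 libraries, all but Kedah-Kelantan replicate 2. Neutrophil markers summed to 1699 to 1832 CPM in Kedah-Kelantan and 2138 to 3279 CPM in Brangus. Monocyte markers were at 1525 to 1745 and 1177 to 1217 CPM, NK and cytotoxic lymphocyte markers at 750 to 829 and 518 to 540 CPM, and B and plasma cell markers at 1870 to 2014 and 2767 to 3124 CPM. Platelet markers stood at 335 to 383 and 1303 to 1427 CPM and erythroid markers at 147 to 185 and 446 to 641 CPM, with HBA1 and CA1 at 0 in all 6 libraries. The median platelet marker lay the other way, at a log2 CPM of 4.86 and 4.85 in Kedah-Kelantan against 4.06 and 4.22 in Brangus. The median erythroid marker overlapped, at -0.53 and -0.34 against -0.31 and -0.79, with 5 of 10 at 0 in Brangus replicate 2. T cell markers were close, at 2079 to 2311 and 2185 to 2215 CPM. The 8 gamma delta T cell markers in the table were lower in Kedah-Kelantan without overlap, at 108 to 119 against 134 to 155 CPM. The part of these shifts in the levels of FKBP5, TSC22D3 and ZBTB16 was not tested.

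**Figure D3:**
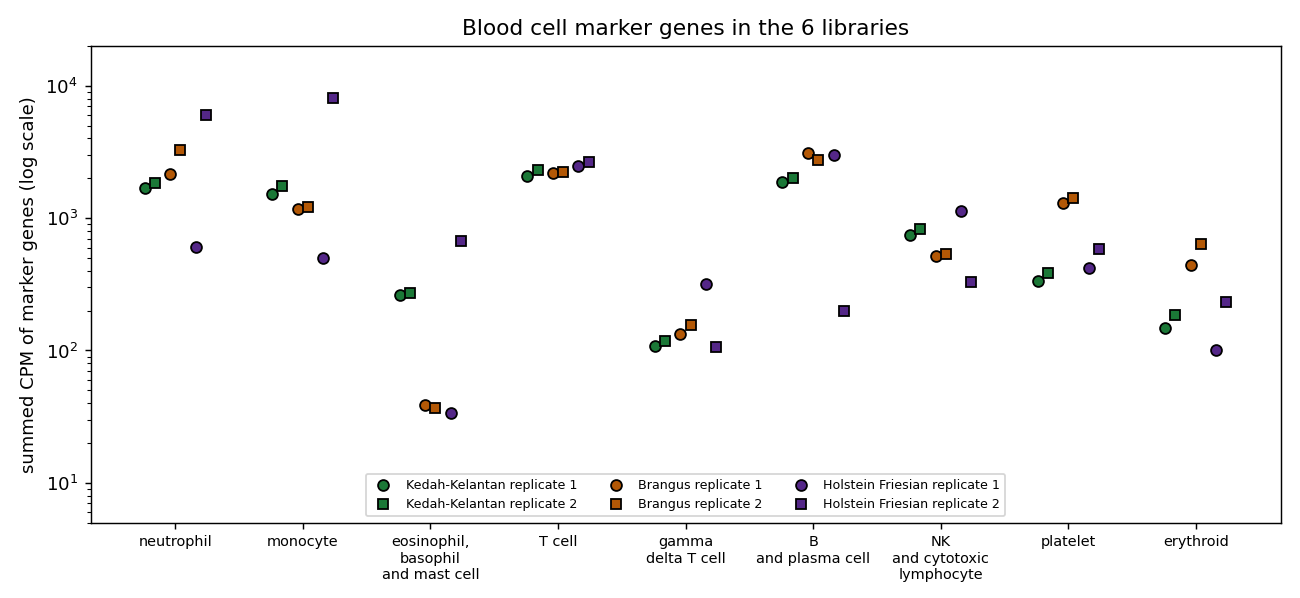
Summed level of fixed marker genes of 9 blood cell types in each of the 6 libraries, in CPM on a log scale. The Holstein Friesian libraries lie far apart for monocytes (501 and 8073), neutrophils (604 and 6052) and B and plasma cells (3014 and 199) and close together for T cells, and Brangus lies below Kedah-Kelantan for eosinophil, basophil and mast cell markers.

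Within Holstein Friesian, replicate 2 was above replicate 1 for all 6 genes, where 49.6% of all genes were above. The ratio of replicate 2 to replicate 1 in CPM was 11.5 for SGK1, 3.02 for ZBTB16, 2.76 for TSC22D3, 2.05 for FKBP5, 1.31 for NR3C1 and 1.21 for PER1. The receptor gene thus differed far less between these libraries than 4 of its 5 targets. In Kedah-Kelantan the same ratios ran from 0.651 for PER1 to 1.15 for SGK1, and in Brangus from 0.801 for NR3C1 to 1.34 for SGK1. These are values of single libraries, with no test.

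The Holstein Friesian libraries also differed in their blood cell markers. In replicate 2 the summed level was 16.1 times that of replicate 1 for monocyte markers, 10.03 times for neutrophil markers and 20.2 times for eosinophil, basophil and mast cell markers. It was 0.0661 times for B and plasma cell markers, 0.293 times for NK and cytotoxic lymphocyte markers and 0.334 times for gamma delta T cell markers, 1.08 times for T cell markers, 1.39 times for platelet and 2.32 times for erythroid markers. For T cell and erythroid markers the median log2 difference over tested genes had the other sign, at -0.33 and -0.89. All 10 monocyte and 10 neutrophil markers had counts in both libraries, while CPA3 and MS4A2 had none in replicate 1 and HDC had none in either. The part of these markers in the levels of the 6 genes was not tested.

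Which Holstein Friesian library was kept set the direction of several differences. Without replicate 1, the high replicate 2 stood for the breed, and 3 of 6 genes were called lower in Kedah-Kelantan, where 17.5% of all genes passed: TSC22D3 at -1.13 (adjusted p = 0.000741), SGK1 at -1.10 (adjusted p = 0.00556) and FKBP5 at -0.91 (adjusted p = 0.00233). Brangus was lower as well, in 4 of 6 genes, where 31.3% of all genes passed: ZBTB16 at -1.83 (adjusted p = 0.0191), SGK1 at -1.26 (adjusted p = 0.00176), TSC22D3 at -0.62 (adjusted p = 0.00679) and FKBP5 at -0.43 (adjusted p = 0.0366). Without replicate 2 the signs of SGK1, TSC22D3 and FKBP5 turned. SGK1 was then higher in Kedah-Kelantan at 2.39 (adjusted p = 0.000795), the 1 gene of 6 called, where 11.9% of all genes passed, and FKBP5 was at 0.08 and TSC22D3 at 0.29. In Brangus, SGK1 was at 2.24 (adjusted p = 0.00132), TSC22D3 at 0.81 (adjusted p = 0.00889) and FKBP5 at 0.57 (adjusted p = 0.0483), 3 of 6 called where 6.06% of all genes passed, and ZBTB16 was at -0.27 and did not pass.

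NR3C1 was between -0.27 and 0.10 in these 4 fits and did not pass. In each of them a lone Holstein Friesian library was assumed to vary like the other breeds. Over the 16 alternatives the highest adjusted p of SGK1, TSC22D3, FKBP5 and ZBTB16 against Holstein Friesian was between 0.967 and 1. SGK1, FKBP5 and TSC22D3 thus had opposite signs with either Holstein Friesian library, in both comparisons, which share these libraries.

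**Figure D4:**
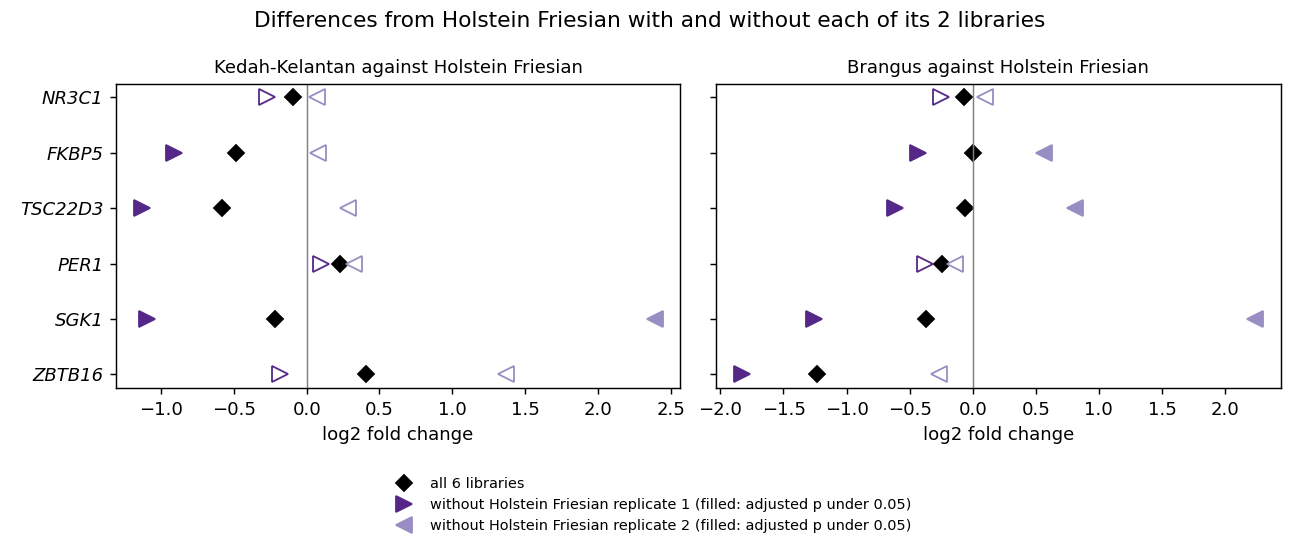
Log2 fold changes of the 6 genes against Holstein Friesian, with all 6 libraries (diamonds), without Holstein Friesian replicate 1 (triangles pointing right) and without replicate 2 (triangles pointing left), filled where a triangle's adjusted p is under 0.05. SGK1 changes sign with the library left out, from -1.10 to 2.39 for Kedah-Kelantan, while NR3C1 and PER1 move little.

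The genes most like each member by the same root mean square distance differed from member to member. They were sought among well-expressed genes with a mean log2 CPM of at least 3, and no shared function is implied. NR3C1 was nearest to TAB3 (0.05), ZNF768 (0.06) and AFTPH (0.06). FKBP5 was nearest to IL7R (0.05), the interleukin 7 receptor of T cells and itself a gene induced by glucocorticoids, to LOC100848419 (0.06) and to DENND10 (0.09). IL7R stood at 372 and 355 CPM in Kedah-Kelantan, 507 and 466 CPM in Brangus, and 344 and 711 CPM in Holstein Friesian. TSC22D3 was nearest to the tropomyosin gene TPM4 (0.07), the polyamine acetyltransferase gene SAT1 (0.07) and CD164 (0.07). PER1 was nearest to ERMARD (0.06), PRRC2C (0.06) and CCSER2 (0.07).

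SGK1 and ZBTB16 had no gene as close by this distance, which is not scaled by how much a gene varies. These 2 genes were also farther from genes in general. The median distance to the genes compared was 1.101 for SGK1 and 0.854 for ZBTB16. It was 0.318 for NR3C1, 0.466 for FKBP5, 0.561 for TSC22D3 and 0.39 for PER1. The distances therefore do not rank how closely other genes followed each member. The nearest to SGK1 were SPECC1 (0.12), VAT1L (0.12) and PTAFR (0.16), the receptor of platelet activating factor, which was at 36.3 and 417 CPM in Holstein Friesian and between 145 and 204 CPM in the other libraries. The nearest to ZBTB16 were LENG8 (0.16), TNFRSF10D (0.17) and CYHR1 (0.18). LENG8 was at 179 and 167 CPM in Kedah-Kelantan, 57.2 and 60.0 CPM in Brangus, and 57.2 and 157 CPM in Holstein Friesian. No gene named here is another of the 6.

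The rest of the pathway was read from 7 fixed lists, and none of their genes passed edgeR's test in any comparison with all 6 libraries in the fit. At an unadjusted p under 0.05, edgeR had 7 of 15 chaperones, 1 of 15 coregulators, 0 of 30 induced genes, 4 of 15 repressed genes, 2 of 9 paralogs and 1 of 14 clock genes in Kedah-Kelantan against Brangus, beside 11.6% of all genes. DESeq2 called AHSA1, HSP90AA1, CCL5 and ICAM1 there, 1 induced gene in Brangus against Holstein Friesian and 1 repressed gene in Kedah-Kelantan against Holstein Friesian. The chaperones that fold and hold the receptor were lower in Kedah-Kelantan than in Brangus in 14 of 15 genes, with a median log2 fold change of -0.51 beside 0.02 for all genes. Under the alternatives this median stayed between -0.56 and -0.24. The -0.24 came with total counts and with limma, where the median of all genes was 0.29 and 0.27. HSP90AA1, a major HSP90 gene, was at 699 and 706 CPM in Kedah-Kelantan, 1116 and 1050 CPM in Brangus, and 811 and 845 CPM in Holstein Friesian (-0.62, SE 0.17, adjusted p = 0.353). AHSA1, which activates the HSP90 ATPase, was at 68.2 and 69.9, 109 and 107, and 80.7 and 79.4 CPM (-0.65, SE 0.15, adjusted p = 0.353). PPID, a cyclophilin of the receptor complex, was at 41.6 and 44.6, 78.4 and 66.1, and 53.0 and 37.6 CPM (-0.74, SE 0.23, adjusted p = 0.368). All 3, named for their small p, were lower in both Kedah-Kelantan libraries than in both Brangus libraries, as were 30.7% of all genes.

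In the fit of only these breeds, 8 of the 15 chaperone genes passed, all lower in Kedah-Kelantan, where 10.2% of all genes were called lower. They were HSP90AA1, HSP90AB1, AHSA1, ST13, PPID, HSPA8, PTGES3 and FKBP4, the last a cochaperone that competes with FKBP5 for the receptor complex. The 8 log2 fold changes lay between -0.74 and -0.50. FKBP4 was at 57.5 and 62.8 CPM in Kedah-Kelantan, 91.6 and 85.3 CPM in Brangus, and 59.1 and 81.7 CPM in Holstein Friesian (-0.55, SE 0.12, adjusted p = 0.0185 in that fit and 0.418 with all libraries). FKBP4 and FKBP5, which act against each other on the receptor, were thus both lower in Kedah-Kelantan than in Brangus there. In Brangus against Holstein Friesian 13 of the 15 chaperones were higher, with a median of 0.37 that stayed between 0.26 and 0.40 under the alternatives. The 0.26 came with total counts and with limma, where the median of all genes was -0.14 and -0.08. In Kedah-Kelantan against Holstein Friesian the median was -0.07, and it was 0.11 without Holstein Friesian replicate 1. With total counts it was 0.07, beside 0.12 for all genes.

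Receptor coregulators, which open or close chromatin at the receptor's sites, lay the other way, with 12 of 15 higher in Kedah-Kelantan than in Brangus and a median of 0.37 that stayed between 0.23 and 0.63. The 0.63 came with total counts and with limma, where the median of all genes was 0.29 and 0.27. Among the genes of smallest p were MED14, a mediator subunit, at 0.50 (SE 0.17, adjusted p = 0.388) and NCOA1, the coactivator SRC-1, at 0.74 (SE 0.32, adjusted p = 0.455). In the fit of only these breeds 5 passed on the higher side, among them MED14, NCOA1 and the acetyltransferase genes CREBBP and EP300, and 1, the corepressor NRIP1, on the lower side (-0.53, SE 0.15), where 9.09% and 10.2% of all genes were called higher and lower. The median against Holstein Friesian was -0.31 for Brangus and -0.00 for Kedah-Kelantan, the latter between -0.10 and 0.23 under the alternatives. The 0.23 came with limma, where the median of all genes was 0.18.

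Transcripts of most genes on the list for steroid supply and the sister receptor were barely measurable, which says nothing of cortisol itself. H6PD, on the same list, was not found among the deposited genes. HSD11B1, which regenerates cortisol from cortisone, had 7 counts in Holstein Friesian replicate 2 and 0 in the other libraries. HSD11B2, which inactivates cortisol, and SERPINA6, the plasma carrier of cortisol, had 0 counts in all 6 libraries. NR3C2, the mineralocorticoid receptor, had 4 and 6 counts in Kedah-Kelantan and 0 elsewhere. Allowing 3 counts where none were found, the upper limit was 0.0965 to 0.129 CPM across libraries, for counting error only. The efflux pump gene ABCB1, the 1 gene of this list that could be tested, was at 4.57 and 6.50, 10.5 and 5.93, and 4.09 and 11.4 CPM in Kedah-Kelantan, Brangus and Holstein Friesian and did not pass.

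The 30 other glucocorticoid-induced genes tested had 20 members higher in Kedah-Kelantan than in Brangus, with a median of 0.27 (0.14 to 0.53 under the alternatives). FKBP5 and TSC22D3 lay on the other side. The median of 0.53 came with total counts and with limma, where the median of all genes was 0.29 and 0.27. In the fit of only these breeds 7 passed on the higher side and 3 on the lower side, beside 9.09% and 10.2% of all genes. DUSP1, a phosphatase that switches off MAP kinases, was at 140 and 172 CPM in Kedah-Kelantan and 30.6 and 36.9 CPM in Brangus, a log2 fold change of 2.21 (SE 0.15, adjusted p = 0.000289 in that fit, 0.518 with all libraries). ANXA1, the phospholipase-inhibiting annexin, was at 770 and 820 against 345 and 452 CPM (1.00, SE 0.14, adjusted p = 0.00418 in that fit, 0.743 with all libraries). RGS2, a regulator of G protein signalling, lay the other way at 83.6 and 86.6 against 139 and 160 CPM (-0.81, SE 0.12, adjusted p = 0.00449 in that fit, 0.81 with all libraries). The other higher ones were GLUL, ZFP36L2, TNFAIP3, SLA and CD163, and the other lower ones BCL6 and IL7R. CD163 also stood on the monocyte marker list.

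With all libraries in the fit, the induced genes of smallest p were KLF9, GLUL and SLA, and each had its widest gap between Brangus and Holstein Friesian. KLF9, a Krüppel-like factor that glucocorticoids induce directly, was at 2.12 and 1.92 CPM in Kedah-Kelantan, 1.11 and 1.37 CPM in Brangus, and 3.39 and 6.69 CPM in Holstein Friesian (Brangus against Holstein Friesian -2.01, SE 0.56, adjusted p = 0.645). It was the 1 induced gene that DESeq2 called there. GLUL, glutamine synthetase, was at 298 and 321, 187 and 126, and 213 and 621 CPM (-1.41, SE 0.53, adjusted p = 0.649). SLA, an adaptor that dampens antigen receptor signals, was at 290 and 276, 200 and 227, and 246 and 343 CPM (-0.46, SE 0.22, adjusted p = 0.659).

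Against Holstein Friesian the direction of the induced list depended on the library kept and, for Kedah-Kelantan, also turned with limma on FPKM. Its median was -0.39 for Kedah-Kelantan, with 24 of 30 lower, and -0.47 for Brangus, with 28 of 30 lower. With limma on log2(FPKM + 0.1) the median was 0.13 for Kedah-Kelantan, with 19 of 30 higher, beside 0.18 for all genes, and -0.23 for Brangus. With total counts only it was -0.20 for Kedah-Kelantan, with 20 of 30 lower, beside 0.12 for all genes. The limma run changed unit, scaling and model together, and which of these turned the sign was not tested. Without Holstein Friesian replicate 2 the medians were 0.81 and 0.60, and without replicate 1 they were -0.91 and -1.06. In replicate 2, 28 of the 30 genes were above replicate 1, with a median log2 difference of 1.59, beside 1.25 for the 6 genes and -0.00 for all genes tested. The monocyte and neutrophil markers given above were higher in the same library.

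Glucocorticoid-repressed genes had no common direction between Kedah-Kelantan and Brangus, with 8 of 15 tested genes higher and a median of 0.00. Under the alternatives the lowest median was -0.66, with a mean count of at least 50, where only 9 genes were tested. The highest was 0.26 with total counts, where the median of all genes was 0.29. CCL5, a chemokine of cytotoxic lymphocytes, was at 188 and 235 CPM in Kedah-Kelantan, 56.3 and 56.8 CPM in Brangus, and 47.9 and 72.3 CPM in Holstein Friesian (Kedah-Kelantan against Brangus 1.90, SE 0.26, adjusted p = 0.337). ICAM1, an adhesion molecule, was at 4.63 and 6.04, 15.5 and 24.1, and 10.1 and 9.62 CPM (-1.89, SE 0.33, adjusted p = 0.351). CCL3, a chemokine of macrophages, was at 2.54 and 3.93, 6.98 and 9.02, and 6.01 and 5.25 CPM (-1.30, SE 0.40, adjusted p = 0.368). In the fit of only these breeds, CCL5, CCL4 and NOS2 passed on the higher side and IL1B, ICAM1, CXCL10, TNF and CCL3 on the lower side, 3 and 5 of 15 beside 9.09% and 10.2% of all genes. IL1B, the pyrogenic cytokine, was at 136 and 147 CPM in Kedah-Kelantan and 250 and 324 CPM in Brangus there (-1.01, SE 0.14, adjusted p = 0.00408 in that fit, 0.732 with all libraries). NOS2 had no count in either Brangus library and was low in Kedah-Kelantan, at a mean of 0.873 CPM. That mean was 6.79 times a Brangus floor of 3 counts per library, a ratio that leaves out the error of the mean. The list median was the same with NOS2 at that ratio.

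**Figure D5:**
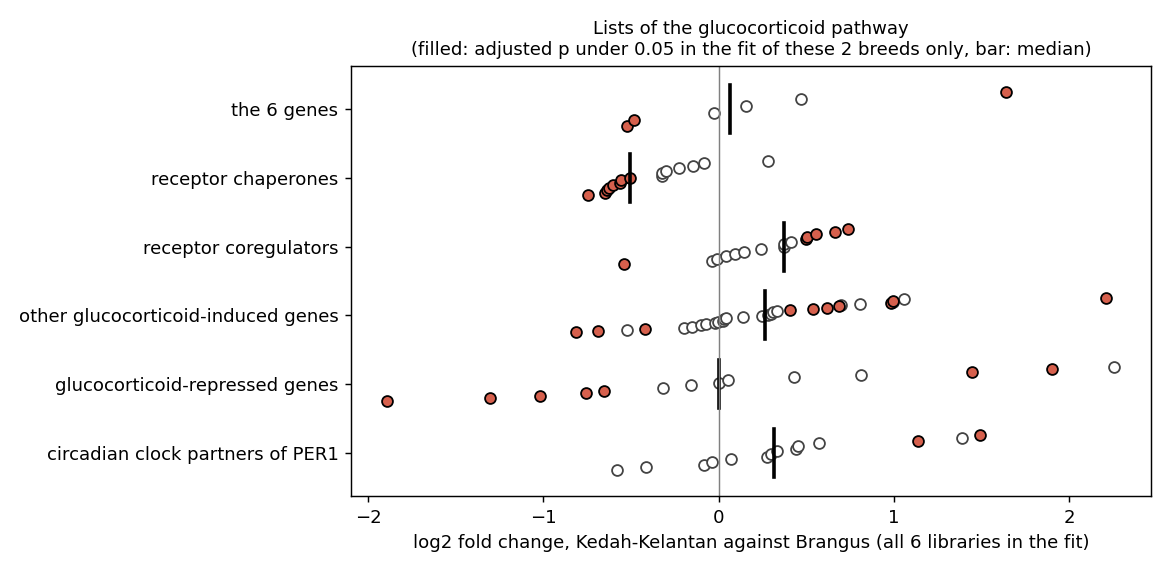
Log2 fold change of each tested gene in Kedah-Kelantan against Brangus from the fit of all 6 libraries, by list, with list medians as bars and genes that passed in the fit of only these breeds filled. NOS2, without a count in Brangus, is not drawn. Receptor chaperones lie to the left (median -0.51) and coregulators to the right (median 0.37), while induced and repressed genes fall on both sides.

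The clock partners of PER1 were higher in Kedah-Kelantan than in Brangus in 10 of 14 tested genes, with a median of 0.31 (0.16 to 0.58 under the alternatives). The 0.58 came with total counts, where the median of all genes was 0.29. PER3, a close relative of PER1, was at 8.85 and 8.55 CPM in Kedah-Kelantan, 3.43 and 2.75 CPM in Brangus, and 4.76 and 11.4 CPM in Holstein Friesian (1.49, SE 0.50, adjusted p = 0.388). CSNK1E, the kinase that marks period proteins for decay, was at 18.5 and 20.9, 10.4 and 7.48, and 9.999 and 32.7 CPM (1.13, SE 0.57, adjusted p = 0.501). CLOCK, the activator that period proteins restrain, lay the other way, at 26.6 and 24.4, 33.2 and 34.8, and 24.2 and 22.7 CPM (-0.41, SE 0.17, adjusted p = 0.446). PER3 and CSNK1E were the 2 clock genes that passed in the fit of only these breeds, at 1.5 (SE 0.30, adjusted p = 0.015) and 1.14 (SE 0.23, adjusted p = 0.0159). These were 2 of 14, beside 19.3% of all genes.

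Paralogs of the 6 genes did not share 1 direction, with 4 of 9 tested paralogs higher in Kedah-Kelantan than in Brangus and a median of -0.03. PER3 and FKBP4, described above, were the 2 of 9 that passed in the fit of only these breeds, beside 19.3% of all genes. ZBTB7A, a relative of ZBTB16, was at 126 and 106 CPM in Kedah-Kelantan, 96.3 and 76.2 CPM in Brangus, and 94.6 and 117 CPM in Holstein Friesian (Kedah-Kelantan against Brangus 0.43, SE 0.21, adjusted p = 0.498). SGK2 had 5 counts in Holstein Friesian replicate 1 and 0 elsewhere. No member overlapped another gene of the deposited table in position.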

How the data were processed

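The labels' protocols give PrimeZOL for RNA extraction from whole blood. Tools listed in the submitters' processing notes are HISAT2 2.2.1, featureCounts 2.0.1, Trimmomatic 0.39, FastQC 0.11.9 and DESeq2 1.38.0, with ARS-UCD1.2 as the build. No source used here gives their roles, settings or strand handling. The deposited values are raw read counts per gene, not normalised, and FPKM values, which the authors deposited beside them without a statement of the gene lengths used. Chromosome names were matched through symbols shared with a RefSeq gene table.

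The counts were analysed with edgeR 4.0.16 in R 4.3.3: TMM scaling, filterByExpr, and a robust quasi-likelihood model with breed as the only term over all 6 libraries, with 3 residual degrees of freedom. Benjamini-Hochberg adjustment was made over 13455 genes. Positive log2 values lie on the side of the breed named first. Standard errors (SE) are log2 fold changes over the root of their F statistic. The script was tested on simulated data. Alternatives were RLE, upper quartile and total-count scaling, no filter, a mean count of at least 50, DESeq2 1.42.0, limma 3.58.1 on log2(FPKM + 0.1), haemoglobin genes removed, a replicate block, only the breeds compared, and each library left out, 16 in all. Nothing in the labels says that a replicate number pairs samples of different breeds.

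The members and lists were chosen with earlier results of these data known. Named genes are the 6 members, the 3 genes of each list with the smallest p for any breed difference, and the 3 genes nearest each member by root mean square difference of centred log2 CPM (prior count 2). Of the genes this rule selected, 1 is not reported here. Other list genes were named after their values were seen, because they passed in the fit of only 2 breeds. The list alternatives were added after the data were seen. A planned search of promoters for glucocorticoid response elements was not run, as no sequences were used here. PCR copies cannot be told from separate molecules in these reads, so floors cover counting error only.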

Additional observations from a re-analysis of the deposited data

How the results depend on the processing

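Of 288 log2 fold changes of the 6 genes under the alternatives, 245 kept their direction and their side of the threshold, 16 passed that had not, and 27 changed sign. Of the last, SGK1 in both comparisons with Holstein Friesian and FKBP5 and TSC22D3 in Brangus against Holstein Friesian passed with the other sign, without Holstein Friesian replicate 2. The count of genes called moved most with the tool and with Holstein Friesian. In Kedah-Kelantan against Holstein Friesian 1 gene was called; 0 were with a mean count of at least 50, the replicate block or only these breeds, 108 with DESeq2, and 0 to 2464 with a library left out. In Brangus against Holstein Friesian 1 was called; 0 were with RLE, a mean count of at least 50, the replicate block or only these breeds, 2 with limma, 282 with DESeq2, and 0 to 4395 with a library left out. In Kedah-Kelantan against Brangus 0 were called, 532 with DESeq2, 2537 with only these breeds and 0 to 2458 with a library left out. For any breed difference 0 were called, 1 without the filter or with limma, 527 with DESeq2 and 0 to 4783 with a library left out.

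Of the 6 genes, 0 to 3, 0 to 4 and 0 to 3 passed in these 3 comparisons with a library left out, and 3 in Kedah-Kelantan against Brangus with only these breeds. Leaving out 1 library gave these ranges where the sign turned. Against Holstein Friesian, Kedah-Kelantan ranged from -0.27 to 0.069 for NR3C1, -0.91 to 0.081 for FKBP5, -1.13 to 0.29 for TSC22D3, -0.11 to 0.51 for PER1, -1.10 to 2.39 for SGK1 and -0.18 to 1.37 for ZBTB16. Brangus ranged from -0.27 to 0.10 for NR3C1, -0.43 to 0.57 for FKBP5, -0.62 to 0.81 for TSC22D3 and -1.26 to 2.24 for SGK1. Kedah-Kelantan against Brangus ranged from -0.18 to 0.13 for NR3C1 and -0.049 to 0.39 for SGK1.

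Other settings also turned signs, in values that did not pass, and the cause was not tested. NR3C1 was at 0.075 with total counts and 0.076 with limma in Kedah-Kelantan against Holstein Friesian, and at 0.23 and 0.24 in Kedah-Kelantan against Brangus. FKBP5 was at 0.049 with upper quartile scaling in Brangus against Holstein Friesian, and TSC22D3 at 0.017 with limma. SGK1 was at 0.0048 with total counts and 0.81 with limma in Kedah-Kelantan against Holstein Friesian, and at 0.38 with limma in Brangus against Holstein Friesian. With the replicate block, FKBP5 was at 0.052, TSC22D3 at 0.066 and SGK1 at 0.16 in Brangus against Holstein Friesian, and SGK1 at 0.36 in Kedah-Kelantan against Holstein Friesian. The deviations of same-numbered replicates were correlated between breeds over 5549 genes. The correlation was 0.078 for Kedah-Kelantan and Brangus, -0.053 for Kedah-Kelantan and Holstein Friesian and 0.301 for Brangus and Holstein Friesian. With so few libraries, these values cannot decide whether the numbers pair samples. With the block, 0 of 6 genes passed in any comparison.

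With 2 libraries a breed, the spread between libraries limited the precision, and how far depth also limited it was not tested. ZBTB16 had only 31 and 37 counts in the Brangus libraries, so counting error was not negligible there.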
